A study of Mus musculus with 10 samples.

Results

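The genes described here are a list of 36 mouse imprinted genes, which are transcribed mainly from the chromosome inherited from 1 parent. The list was matched to the array by gene name, old aliases included. It is defined by imprinting and not by a measured value, although results of these data were known when it was chosen. Of the 36, 35 had at least 1 probe, 70 probes in all, and all 35 were among the 26312 names tested of 34607 on the array. Among the 35, 21 were classed as expressed from the paternal and 13 from the maternal chromosome, and 1, Gnas, from either depending on transcript and tissue. These classes were assigned beforehand and were not measured in the cells used here. The maternally expressed RNA Rian was not analysed here. A probe was well above the local background on all 10 arrays for 26 of the 35, so the other genes entered the test through some of the groups alone.

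Expression was read on single-colour 60-base Agilent arrays with 2 arrays in each of 5 groups, all from Six2-GFP transgenic animals (strain C57BL6J/ICR). E11.5 progenitors were the Six2-GFP-positive cells of embryos at E11.5, taken by flow sorting. P0 progenitors and P0 non-progenitors were the GFP-positive and GFP-negative cells at P0, the day of birth (the names of the deposited data give a late embryonic age instead, and the labels were followed). The last 2 groups were E11.5 progenitors kept in conditioned medium for 8 or 19 days. All groups carry the same transgene, the composition of the medium and any sorting after culture were not given in the sources used here, and the GFP-negative group is defined by lack of signal, so it is a mixture of cell types. The labels do not say whether the 2 replicates of a group came from separate litters or cultures, so p-values measure the spread between these samples, which may be technical.

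Six2-positive cells of the cap mesenchyme are the progenitors of the nephron epithelium, and their self-renewal ends around birth in the mouse. Imprinted genes lie mostly in clusters in which a differentially methylated control region, marked in the egg or the sperm, sets which parental copy is read. The KRAB zinc-finger protein ZFP57 and its partner TRIM28 keep that methylation in embryonic cells, and CTCF binds the unmethylated copy of the control region between Igf2 and H19. Many of the encoded proteins act on growth: IGF2 promotes it, and CDKN1C, GRB10 and IGF2R restrain it. The arrays measured total RNA and do not separate the parental copies, so a change of level is reported with no statement on imprinting itself.

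The 3 sequences below are H19 probes, shown because separate stretches of this RNA all read lower after 19 days of culture than at E11.5. They lie on the minus strand of chromosome 7 in assembly mm9, as the array's annotation gives it, at chr7:149761492-149761551 for probe 1, chr7:149761957-149762016 for probe 5 and chr7:149762417-149762476 for probe 7. Capitals are not used, since the whole probe hybridises.
H19 probe 1: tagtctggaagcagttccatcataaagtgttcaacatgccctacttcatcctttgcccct
H19 probe 5: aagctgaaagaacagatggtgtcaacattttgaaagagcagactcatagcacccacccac
H19 probe 7: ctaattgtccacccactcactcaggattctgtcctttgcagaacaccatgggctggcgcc

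The next 3 sequences are the 250 bases before a RefSeq transcript start (GRCm38.p6), shown for genes whose levels turn on age or culture time. RefSeq's table held 47 such windows for 30 of the listed genes. TGCCGC, the letters ZFP57 recognises when they are methylated, was searched on both strands (GCGGCA on the strand printed) and is in capitals in the Mest and Plagl1 windows. It was found in 5 of 47 windows (10.6%) and in 2850 of 32851 windows of all genes (8.7%), which is a match of letters and not a measured site. In the Peg3 window the capitals mark instead the 163 bases, chr7:6730420-6730582, that it shares with the window of Usp29, a gene read in the opposite direction. Mest lies on the plus strand at chr6:30737800-30738049, Plagl1 on the plus strand at chr10:13090582-13090831 and Peg3 on the minus strand at chr7:6730420-6730669.
Mest promoter: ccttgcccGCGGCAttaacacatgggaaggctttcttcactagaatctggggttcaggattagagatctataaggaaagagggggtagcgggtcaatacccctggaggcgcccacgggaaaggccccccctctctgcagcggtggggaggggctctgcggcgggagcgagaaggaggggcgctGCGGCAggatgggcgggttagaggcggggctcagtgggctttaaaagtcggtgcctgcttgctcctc
Plagl1 promoter: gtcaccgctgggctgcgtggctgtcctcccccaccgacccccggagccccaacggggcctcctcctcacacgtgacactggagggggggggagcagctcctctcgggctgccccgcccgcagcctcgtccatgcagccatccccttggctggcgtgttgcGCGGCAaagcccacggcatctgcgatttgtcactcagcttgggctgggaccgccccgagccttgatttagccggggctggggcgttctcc
Peg3 promoter: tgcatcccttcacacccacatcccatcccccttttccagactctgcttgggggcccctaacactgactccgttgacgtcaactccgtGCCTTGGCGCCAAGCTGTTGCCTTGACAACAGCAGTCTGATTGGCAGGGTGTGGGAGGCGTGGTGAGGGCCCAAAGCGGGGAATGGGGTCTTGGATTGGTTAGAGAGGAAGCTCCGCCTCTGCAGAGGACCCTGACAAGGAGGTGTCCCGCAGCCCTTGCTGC

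The arrays were alike in brightness, with 60.4% to 69.8% of spots well above background and no saturated spot, and their number limits the precision. Progenitor markers (9 genes, Six2, Cited1 and Osr1 among them) had a mean log2 level of 4.47 to 4.75 on the 4 arrays of fresh progenitors, 1.44 and 1.54 in P0 non-progenitors, 2.89 and 2.90 after 8 days and -0.37 and 0.90 after 19 days of culture. Six2 read 4.7 and 4.82 in E11.5 progenitors and 5.21 and 4.61 after 8 days. Osr1 read 1.33 and 2.83, then 2.85 and 1.8. Pax2 fell from 4.56 and 4.21 to -1.4 and -1.04, and Meox1 from 3.7 and 3.98 to -2.4 and -2.87. Eya1 stayed between 9.24 and 9.74 in all groups. Stromal markers (10 genes) had means of -1.5 to -1.12 in fresh progenitors, 2.37 and 2.40 in P0 non-progenitors, 0.09 and -0.57 after 8 days and 2.50 and 2.34 after 19 days. Not all of them followed that mean. Foxd1 was highest in E11.5 progenitors, at 3.83 and 3.2, and read -2 and -4.87 after 19 days. Tcf21 was lowest after 19 days, at -0.12 and -0.15. Endothelial markers (7 genes) had means of 2.28 and 2.16 in P0 non-progenitors and -3.83 to -2.36 elsewhere. Skeletal muscle markers (8 genes) had means of 0.19 and 0.78 after 8 days of culture and -3.0 to -1.55 elsewhere. Erythroid markers (8 genes) had means of -0.45 and -1.62 in E11.5 progenitors, -2.39 and -2.42 in P0 progenitors, 0.09 and 0.21 in P0 non-progenitors and -4.88 to -4.35 in culture. Among them the embryonic globin gene Hbb-y read 5.51 and 3.87 in E11.5 progenitors and -4.99 to -2.12 on the other 8 arrays. Hbb-bh1 and Hba-x also fell from E11.5 to P0 progenitors, but other members rose. Hbb-b1 went from -2.15 and -6.06 to 0.53 and 0.74, and Hbb-b2 from -3.24 and -2.32 to -0.04 and 0.31. Alas2 went from -4.59 and -2.79 to -1.86 and -1.36. Freshly sorted cells and 8-day replicate 1 were hybridised on slide 1, and 8-day replicate 2 with both 19-day samples on slide 2, so only the 8-day samples span both slides. Levels below are log2 intensities minus the 75th percentile of the same array, so 0 is that percentile, and levels of different genes cannot be set against each other.

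Over 6 comparisons the 35 genes gave 51 calls (adjusted p under 0.05, limma with Benjamini-Hochberg adjustment over all names tested) in 19 genes, and 16 genes passed in none. The share of all names called in at least 1 comparison is not given here, so these totals have no background beside them. At P0, 2 genes were higher and 4 lower in progenitors than in non-progenitors, where 8.35% of all names tested were called (4.21% higher and 4.13% lower). From E11.5 to P0 progenitors none rose and 8 fell (background 3.93%, with 2.02% higher and 1.91% lower). The erythroid means fell along with them, through embryonic globin genes, while Hbb-b1, Hbb-b2 and Alas2 rose. The part of erythroid cells in the falls of the 8 genes, or in those from E11.5 to culture, was not tested. After 8 days of culture 3 genes were higher and 3 lower than in E11.5 progenitors (background 4.78%, with 2.74% higher and 2.04% lower). After 19 days 3 were higher and 13 lower (background 16.8%, with 7.21% higher and 9.55% lower). From day 8 to day 19 of culture 1 rose and 8 fell (background 8.04%, with 2.66% higher and 5.38% lower). Cells cultured for 8 days, which brings E11.5 cells to about the age of birth, were above P0 progenitors for 6 genes and below them for none (background 3.96%, with 2.4% higher and 1.56% lower).

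**Figure D1:**
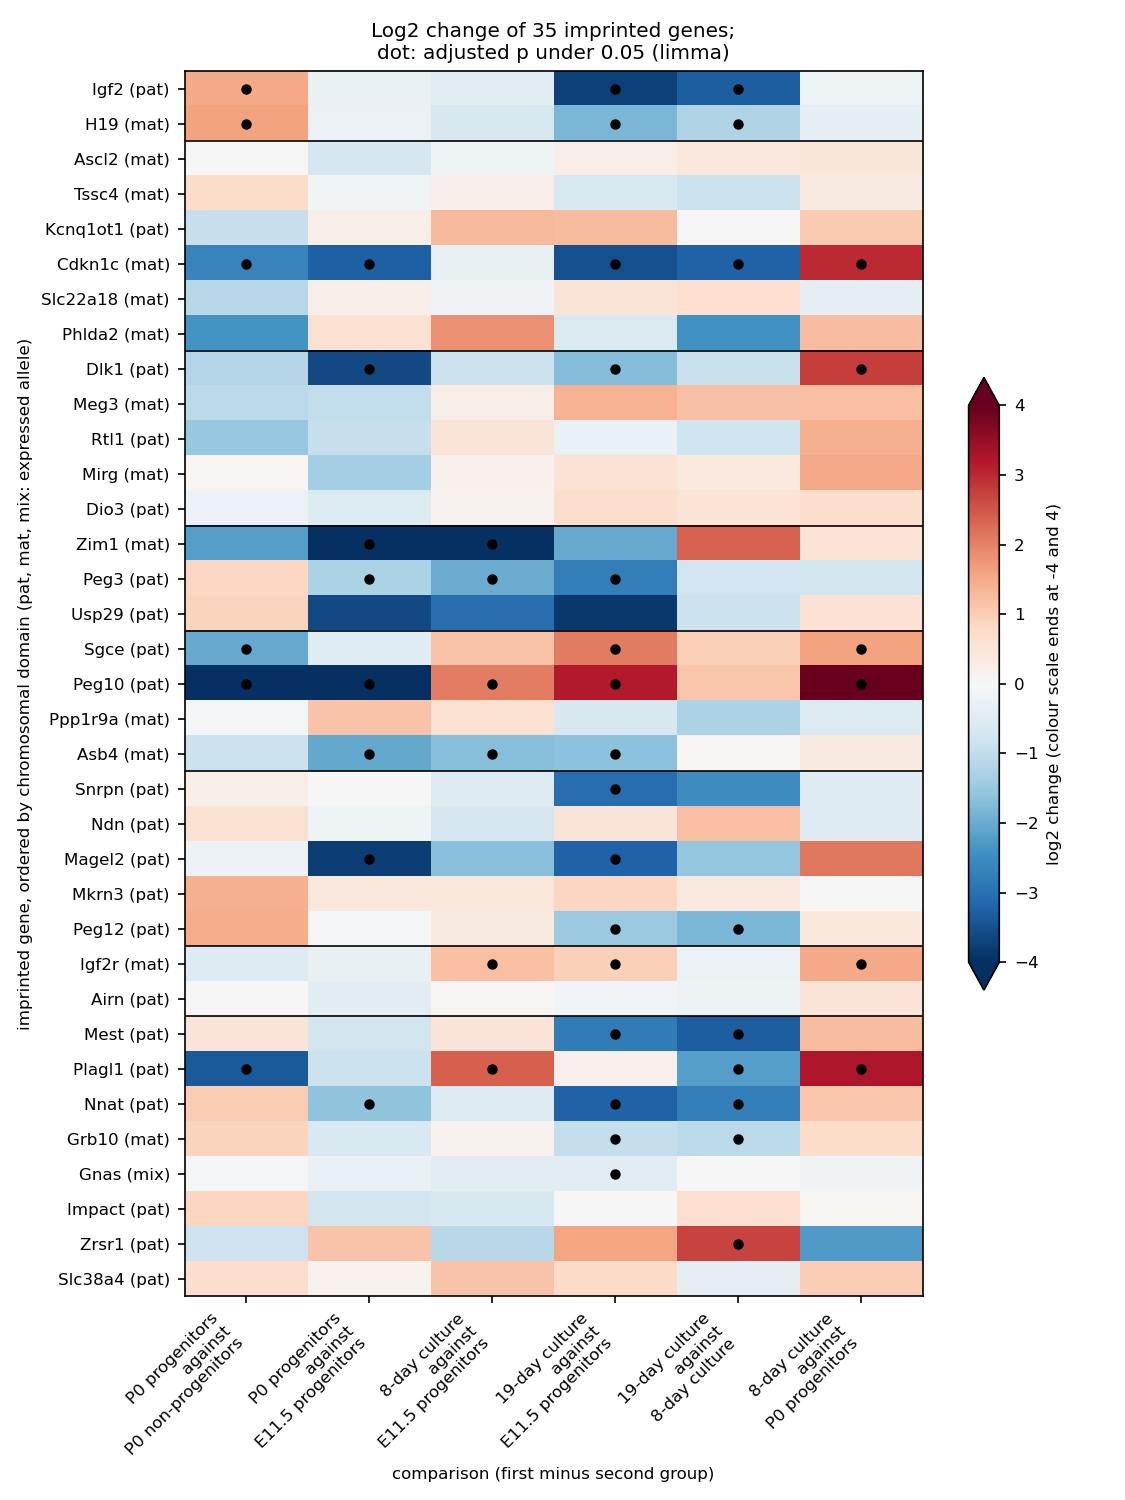
Log2 change of each of the 35 imprinted genes (rows, ordered by chromosomal domain, with the expressed parental copy in brackets) in the 6 comparisons (columns, first minus second group), blue for lower and red for higher, with a dot where limma's adjusted p was under 0.05. The column of 19-day culture against E11.5 progenitors holds the most dots, 16, and the column of P0 against E11.5 progenitors holds 8, all in blue cells.

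The medians of the 35 changes were -0.06, -0.55, 0.07, -0.41, -0.38 and 0.59 in the same order, beside medians over all names of 0.099, -0.125, 0.020, 0.006, -0.015 and 0.134. In 19-day culture against E11.5 progenitors, paternally expressed genes had 2 higher and 8 lower of 21, and maternally expressed genes 1 higher and 4 lower of 13. From E11.5 to P0 progenitors 5 of 21 paternally and 3 of 13 maternally expressed genes fell. Both parental classes were therefore among the falls, and no test set one class against the other. Several comparisons share a group of arrays, E11.5 progenitors or P0 progenitors above all, so their counts are not independent.

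Igf2, which encodes the fetal growth factor IGF2, and H19, a non-coding RNA read from the other parental chromosome under the same enhancers, were called in the same 3 comparisons and with the same sign. Igf2 (paternal) read 5.82 and 5.80 in E11.5 progenitors, 5.49 and 5.56 in P0 progenitors, 4.25 and 3.81 in P0 non-progenitors, 5.23 and 5.51 after 8 days and 1.67 and 2.46 after 19 days. The 6 arrays of fresh progenitors and 8-day culture lay above all 4 others, and the 19-day arrays were the lowest. Igf2 was 13.4-fold lower after 19 days than in E11.5 progenitors (log2 change -3.75 ± 0.26 SE, adjusted p = 0.000339, limma) and 9.88-fold lower than after 8 days (-3.31 ± 0.26, adjusted p = 0.00167). At P0 it was 2.82-fold higher in progenitors than in non-progenitors (1.5 ± 0.26, adjusted p = 0.0155). In P0 against E11.5 progenitors its change was -0.28 ± 0.26 and in 8-day culture against E11.5 progenitors -0.44 ± 0.26, neither passing.

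H19 (maternal) read 8.27 and 8.37 in E11.5 progenitors, 7.95 and 8.20 in P0 progenitors, 6.60 and 6.33 in P0 non-progenitors, 7.23 and 8.15 after 8 days and 6.42 and 6.56 after 19 days. The 19-day arrays overlapped those of P0 non-progenitors, and the other groups lay above both. H19 fell 3.55-fold from E11.5 progenitors to 19 days (-1.83 ± 0.27, adjusted p = 0.00444, limma) and 2.29-fold from 8 to 19 days (-1.20 ± 0.27, adjusted p = 0.036). At P0 it was 3.05-fold higher in progenitors than in non-progenitors (1.61 ± 0.27, adjusted p = 0.0125). All 7 H19 probes, those printed above included, were lower after 19 days than in E11.5 progenitors, by -2.48 to -1.52, and all 7 were higher in progenitors than in non-progenitors of P0, by 0.61 to 1.97. From E11.5 to P0 progenitors the 7 probes spanned -0.78 to 0.04.

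**Figure D2:**
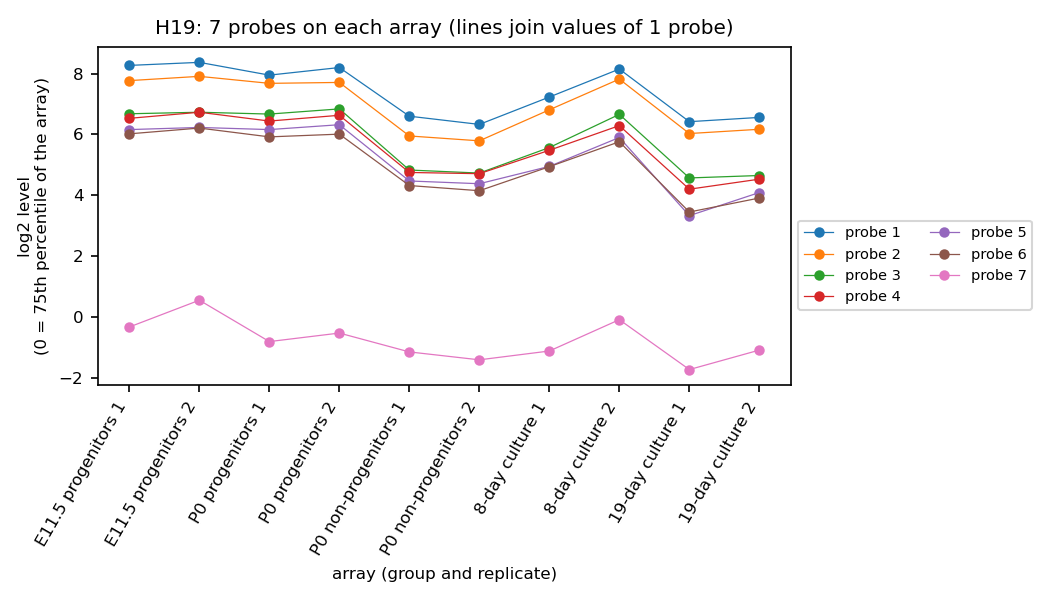
Log2 level of the 7 H19 probes (coloured lines, 1 line per probe) on each of the 10 arrays, named by group and replicate on the horizontal axis. All probes drop from P0 progenitors to P0 non-progenitors and are lower on both 19-day arrays than on both E11.5 arrays, while 8-day replicate 1 lies below replicate 2 for each probe.

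With the slide as a block, Igf2 was -4.02 (adjusted p = 0.0129) and H19 -2.75 (adjusted p = 0.00493) in 19-day culture against E11.5 progenitors, and both stayed called in 19-day against 8-day culture at -3.44 and -1.66. The same block brought H19 past the threshold in 8-day culture against E11.5 progenitors (-1.09, adjusted p = 0.0281), where it is the contrast of 8-day replicate 1. Both 19-day calls against E11.5 held without each array. The P0 call of Igf2 was lost without P0 progenitors replicate 1 (1.53) or 2 (1.46) or non-progenitors replicate 2 (1.28), and that of H19 without any 1 of the 4 arrays (1.47 to 1.74). The 8-to-19-day call of H19 was lost without 8-day replicate 2 (-0.74) or either 19-day replicate (-1.13 and -1.26). The groups with less Igf2 and H19, P0 non-progenitors and 19-day culture, had stromal means above 2 and the lowest progenitor means, although the stromal markers Foxd1 and Tcf21 were low after 19 days. The part of cell makeup in the values of Igf2 and H19 was not tested. In bulk RNA, fewer cells of a type and less RNA per cell cannot be told apart.

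Peg10 and Sgce, paternally expressed neighbours on chromosome 6, were higher after 19 days of culture than in E11.5 progenitors. In that comparison most calls of the list were falls. Peg10 encodes a retrotransposon-derived protein needed for the placenta, and it gave the widest range of the 35. Peg10 read 2.41 and 2.32 in E11.5 progenitors, -3.87 and -4.49 in P0 progenitors (well above background on 1 of the 2 arrays), 1.43 and 1.48 in P0 non-progenitors, 4.61 and 4.21 after 8 days and 5.02 and 6.03 after 19 days. No group overlapped another, P0 progenitors being lowest and 19-day culture highest. The fall from E11.5 to P0 progenitors was 93.3-fold (-6.54 ± 0.36, adjusted p = 0.000664, limma), and P0 progenitors were 49.7-fold below P0 non-progenitors (-5.63 ± 0.36, adjusted p = 0.000753). In culture Peg10 rose 4.13-fold by 8 days (2.05 ± 0.36, adjusted p = 0.027) and 8.96-fold by 19 days (3.16 ± 0.36, adjusted p = 0.00179). Cells cultured for 8 days stood 385-fold above P0 progenitors (8.59 ± 0.36, adjusted p = 0.000169). The second Peg10 probe gave the same order, with group means of 1.80, -5.31, 1.01, 4.34 and 5.01. Of these 5 calls, 8-day culture against E11.5 progenitors was lost without any 1 of the 4 arrays (1.85 to 2.25) and with the slide as a block (2.25, adjusted p = 0.063), and the other 4 held in both checks. Normexp background correction, which raises the lowest values, made the differences from P0 progenitors smaller, at 18.5-fold below E11.5 progenitors (-4.21), 10.4-fold below P0 non-progenitors (-3.38) and 74-fold below 8-day culture (6.21), all still called. The size of these folds thus depends on the background correction.

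Sgce, which encodes epsilon-sarcoglycan of the membrane sarcoglycan complex, read -0.24 and -0.55 in E11.5 progenitors, -0.97 and -0.78 in P0 progenitors, 1.37 and 0.90 in P0 non-progenitors, 0.72 and 0.75 after 8 days and 1.81 and 1.57 after 19 days. All 4 fresh progenitor arrays were below 0 and the other 6 above it. Sgce was 4.03-fold lower in progenitors than in non-progenitors of P0 (-2.01 ± 0.26, adjusted p = 0.00545, limma), 4.26-fold higher after 19 days than in E11.5 progenitors (2.09 ± 0.26, adjusted p = 0.00251) and 3.04-fold higher after 8 days than in P0 progenitors (1.61 ± 0.26, adjusted p = 0.0211). With the slide as a block the 19-day call was lost (2.07, adjusted p = 0.0585), as was the 8-day call against P0 progenitors (1.59, adjusted p = 0.0757), which was also lost without any 1 of its 4 arrays (1.51 to 1.70). The groups with more Sgce were those with higher stromal marker means, although the stromal marker Foxd1 was lower in them than in E11.5 progenitors. Placental markers (5 genes) had means of -3.92 to -2.17 on the 10 arrays, the highest on 8-day replicate 1. Tfap2c, a trophoblast transcription factor, read -6.5 to -3.61 on the 6 fresh arrays, 0.5 and -0.66 after 8 days and -0.31 and 2.7 after 19 days, higher in culture as Peg10 was. Prl3d1 was at -6.81 to -3.48, Elf5 at -5.37 to -0.81 with its highest values in P0 non-progenitors, Gcm1 at 2.93 to 3.69, and Cdx2 was well above background on 0 of 10 arrays. The part of placental cells in the values of Peg10 was not tested.

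Further along this domain, the maternally expressed Asb4, a substrate receptor of ubiquitin ligases, was highest in E11.5 progenitors on its brighter probe. There Asb4 read 1.32 and 1.80 in that group, -0.56 and -0.43 in P0 progenitors, 0.54 and 0.15 in P0 non-progenitors, -0.15 and -0.12 after 8 days and -0.10 and -0.06 after 19 days. The E11.5 arrays lay above all others, and Asb4 fell 4.17-fold to P0 progenitors (-2.06 ± 0.26, adjusted p = 0.0106, limma), 3.24-fold to 8 days (-1.70 ± 0.26, adjusted p = 0.0195) and 3.12-fold to 19 days (-1.64 ± 0.26, adjusted p = 0.0065). A dimmer second probe agreed in sign in these 3 comparisons but was highest in P0 non-progenitors, at 0.23 and -0.24 against -1.43 and -1.22 in E11.5 and -6.44 and -6.19 in P0 progenitors. The mean of the 2 probes ended the 8-day (-2.58, adjusted p = 0.0795, limma) and 19-day (-2.33, adjusted p = 0.0566) calls, kept that at P0 (-3.52) and gained one in P0 progenitors against non-progenitors (-3.58, adjusted p = 0.0186). The P0 call was lost without either P0 progenitor array (-2.0 and -2.12), the 8-day call without E11.5 replicate 2 (-1.46) or 8-day replicate 1 (-1.68) or 2 (-1.71), and with the slide as a block the 8-day (-1.71) and 19-day (-1.67) calls were lost. Ppp1r9a, which encodes the actin-binding neurabin, passed in no comparison, with levels of -1.1 to 1.0.

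**Figure D3:**
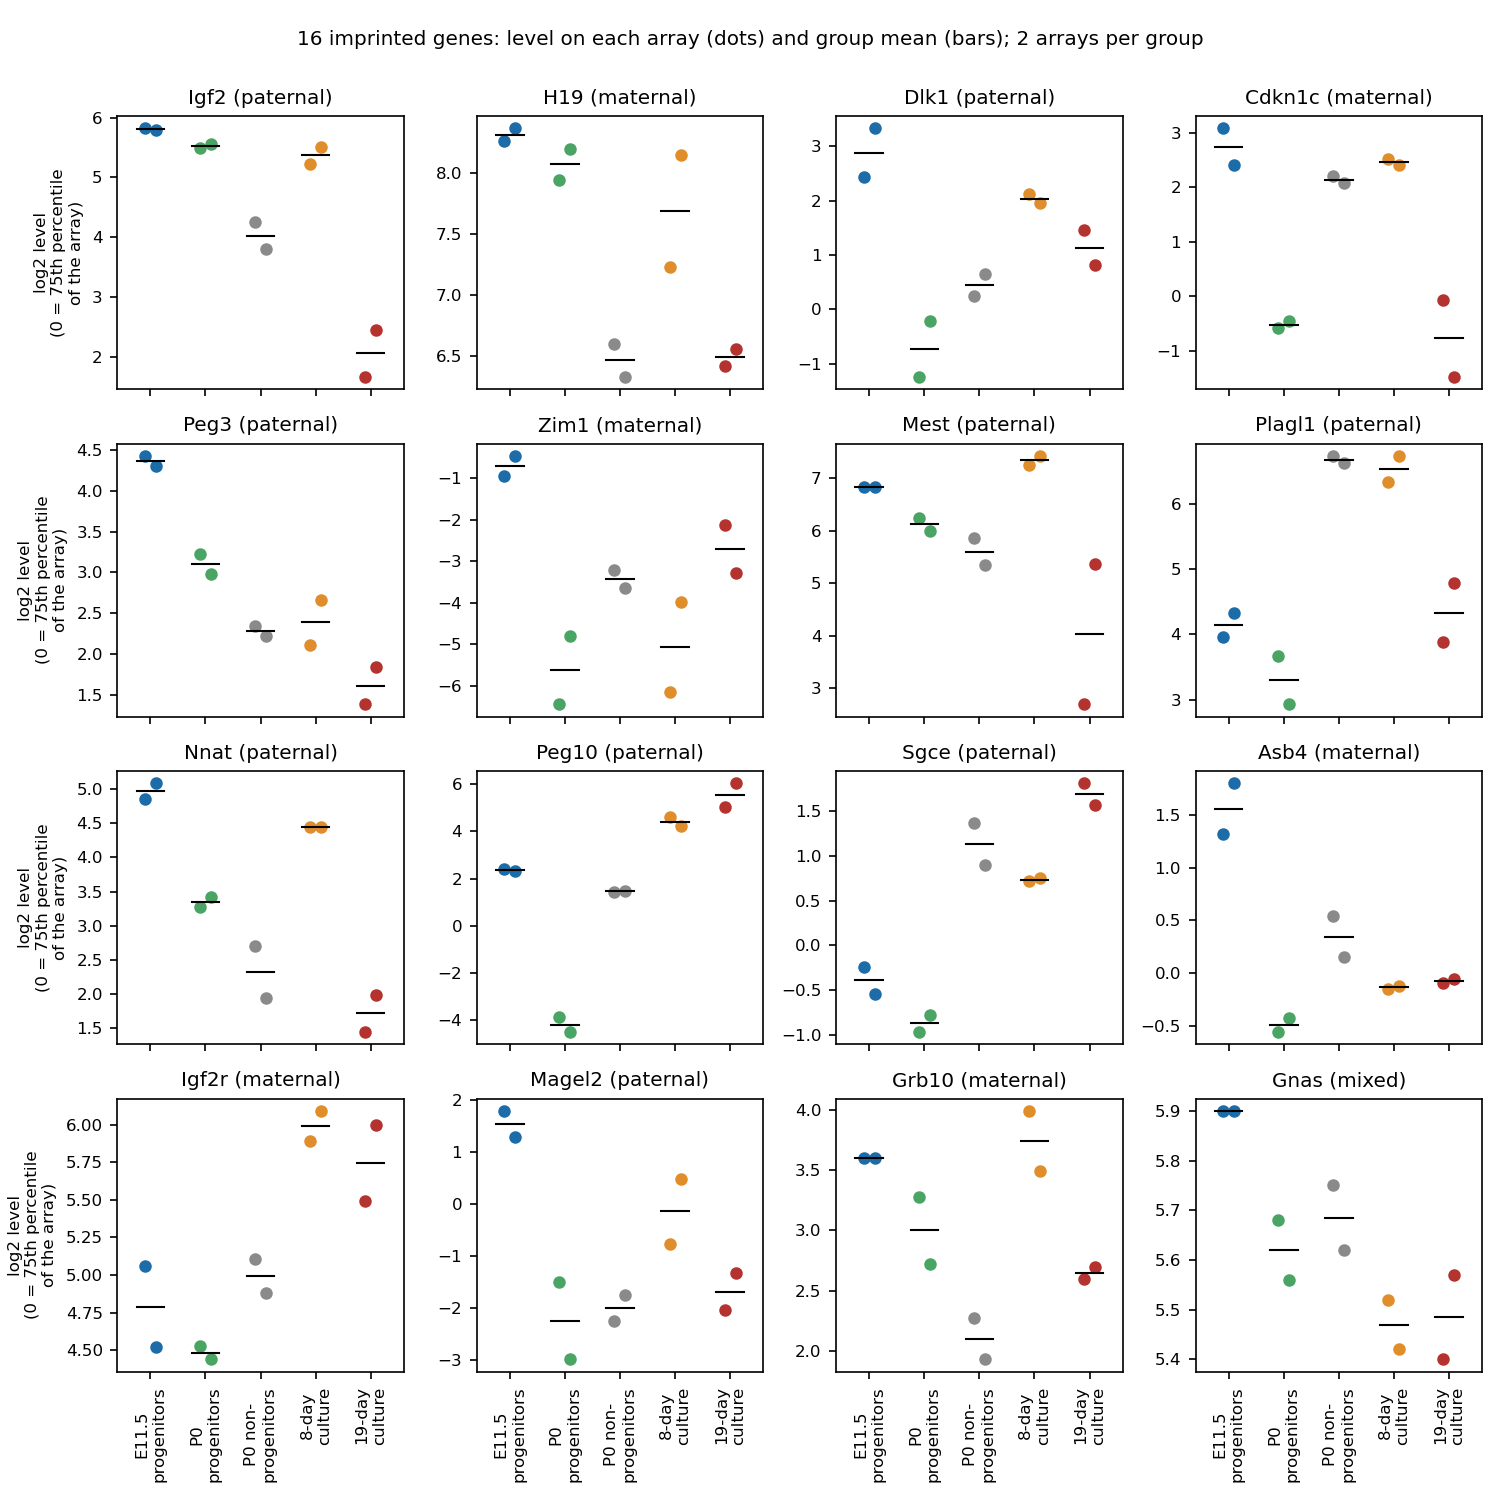
Log2 level (0 is the 75th percentile of the array) of 16 imprinted genes on each array, with 1 dot per array and a bar at the mean of the 2 arrays of a group; each panel has its own vertical scale. Igf2, Mest, Nnat and Cdkn1c are low after 19 days of culture, Peg10 and Sgce are high there, and Peg10 is lowest in P0 progenitors.

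In the Peg3 domain on chromosome 7, both measured neighbours with usable signal fell with age. Peg3, a paternally expressed zinc-finger protein gene, read 4.43 and 4.31 in E11.5 progenitors, 3.22 and 2.98 in P0 progenitors, 2.34 and 2.22 in P0 non-progenitors, 2.11 and 2.66 after 8 days and 1.38 and 1.84 after 19 days. The E11.5 arrays were highest, P0 progenitors came next, and the 19-day arrays were lowest. Peg3 fell 6.78-fold from E11.5 progenitors to 19 days (-2.76 ± 0.24, adjusted p = 0.000671, limma), 3.97-fold to 8 days (-1.99 ± 0.24, adjusted p = 0.00893) and 2.41-fold to P0 (-1.27 ± 0.24, adjusted p = 0.0357). Both culture calls held without each array and with the slide as a block (-3.31 and -2.26), but the call at P0 was lost without any 1 of the 4 arrays (-1.39 to -1.16) and under quantile normalization (-1.06).

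Zim1, a maternally expressed zinc-finger gene beside Peg3, read -0.95 and -0.47 in E11.5 progenitors, -6.44 and -4.79 in P0 progenitors, -3.22 and -3.64 in P0 non-progenitors, -6.15 and -3.98 after 8 days and -2.13 and -3.29 after 19 days. On this brighter probe the E11.5 arrays stood above all others. On a dimmer second probe, well above background on 5 of 10 arrays, P0 non-progenitors replicate 2 (-2.18) lay between the E11.5 arrays (-2.15 and -3.17). The remaining arrays lay lower there. On the P0 progenitor arrays Zim1 was not well above background. That makes it at least 12.5-fold lower in P0 progenitors than at E11.5 on the brighter probe (fitted change -4.91 ± 0.84, adjusted p = 0.0254, limma). After 8 days, where 1 of 2 arrays was well above background, the change was -4.36 ± 0.84 (adjusted p = 0.0342). The first call was lost without any 1 of its 4 arrays (-5.74 to -4.09), and the second without E11.5 replicate 1 (-4.60) or 2 (-4.12) or 8-day replicate 1 (-3.28); both were lost in the mean of the 2 Zim1 probes (-3.83 and -3.39). Normexp correction made them smaller, at -1.61 and -1.69, and still called, and without 8-day replicate 2 the second was -5.45. Usp29, whose promoter window overlaps that of Peg3 on the other strand, had usable signal on 5 of 10 arrays. Usp29 read -1.70 and 0.32 in E11.5 progenitors and -5.92 to -2.66 on the other 8 arrays, and no comparison passed.

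Cdkn1c, the maternally expressed cyclin-dependent kinase inhibitor p57, passed in 5 of the 6 comparisons. It read 3.08 and 2.40 in E11.5 progenitors, -0.58 and -0.46 in P0 progenitors, 2.20 and 2.08 in P0 non-progenitors, 2.51 and 2.40 after 8 days and -0.07 and -1.48 after 19 days. P0 progenitors and 19-day culture were low, and the other 3 groups lay at least 2 units above 0. Cdkn1c fell 9.60-fold from E11.5 to P0 progenitors (-3.26 ± 0.45, adjusted p = 0.012, limma), was at P0 6.33-fold lower in progenitors than in non-progenitors (-2.66 ± 0.45, adjusted p = 0.0133), and was 7.86-fold higher after 8 days of culture than in P0 progenitors (2.97 ± 0.45, adjusted p = 0.0165). From E11.5 progenitors to 19 days it fell 11.4-fold (-3.52 ± 0.45, adjusted p = 0.00266) and from 8 to 19 days 9.36-fold (-3.23 ± 0.45, adjusted p = 0.00702).

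Both 19-day calls of Cdkn1c held without each array, at -4.22 and -3.93 without 19-day replicate 1 and -2.81 and -2.52 without replicate 2. The fall from E11.5 to P0 was lost without P0 progenitors replicate 1 (-3.20) or 2 (-3.33), and the calls against P0 non-progenitors (-2.73 to -2.60) and in 8-day culture against P0 progenitors (2.91 to 3.04) were lost without any 1 of their arrays. With the slide as a block, 19-day culture against E11.5 progenitors was -3.41 (adjusted p = 0.0697) and 8-day culture against P0 progenitors 3.03 (adjusted p = 0.0652), both lost. The other 5 measured genes of this domain, Kcnq1ot1 (the paternal non-coding RNA that silences it), Phlda2, Slc22a18, Tssc4 and Ascl2, passed in none of the 6 comparisons. For Kcnq1ot1 that holds for its brighter probe, with means of -3.3 in E11.5 progenitors and -2.0 after both 8 and 19 days. A dimmer second probe, well above background on 6 of 10 arrays, differed more, with means of -5.5, -1.5 and -2.8. The second probe was not tested alone. Phlda2, which restrains placental growth, was well above background on 3 of 10 arrays, and at -1.97 on 8-day replicate 2 against -6.26 on replicate 1 its 8-day replicates differed by 4.28.

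In the Dlk1-Dio3 domain on chromosome 12, Dlk1 alone passed. Dlk1 is a paternally expressed transmembrane relative of the Notch ligands. It read 2.44 and 3.33 in E11.5 progenitors, -1.24 and -0.21 in P0 progenitors, 0.24 and 0.65 in P0 non-progenitors, 2.12 and 1.95 after 8 days and 1.46 and 0.81 after 19 days. No 2 groups overlapped, and P0 progenitors were lowest. Dlk1 fell 12.2-fold from E11.5 to P0 progenitors (-3.61 ± 0.45, adjusted p = 0.0094, limma) and 3.36-fold from E11.5 progenitors to 19 days (-1.75 ± 0.45, adjusted p = 0.0353), and was 6.79-fold higher after 8 days of culture than in P0 progenitors (2.76 ± 0.45, adjusted p = 0.0206). The P0 call was lost without P0 progenitors replicate 1 (-3.10), the 19-day call without E11.5 replicate 2 (-1.31) or either 19-day replicate (-2.08 and -1.42), and the 8-day call without any 1 of its arrays (2.25 to 3.28). The last 2 were also lost with the slide as a block (-1.57 and 2.85). The maternally expressed RNA Meg3 was dim (-5.38 to -1.30, 6 of 10 arrays well above background), as was the retrotransposon-derived Rtl1 (-5.43 to -3.45, 4 arrays). Mirg (-2.07 to 0.54) and the thyroid hormone deiodinase gene Dio3 (-1.13 to 0.39) were measured on all arrays and passed in no comparison.

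In the domain of Snrpn on chromosome 7, whose human counterpart is lost in Prader-Willi syndrome, 3 of 5 paternally expressed genes passed. No share of all names called in at least 1 comparison stands beside that count. Magel2, a regulator of ubiquitin ligases, read 1.79 and 1.28 in E11.5 progenitors, -1.51 and -2.99 in P0 progenitors, -2.26 and -1.76 in P0 non-progenitors, -0.77 and 0.49 after 8 days and -2.04 and -1.33 after 19 days. The E11.5 arrays were above all others. Magel2 fell 13.8-fold to P0 progenitors (-3.78 ± 0.61, adjusted p = 0.0205, limma) and 9.30-fold to 19 days (-3.22 ± 0.61, adjusted p = 0.0123). The first call was lost without E11.5 replicate 1 (-3.53) or P0 progenitors replicate 1 (-4.52) or 2 (-3.04). The second was lost without E11.5 replicate 1 (-2.96) or 19-day replicate 1 (-2.86) and with the slide as a block (-4.48, adjusted p = 0.0519). Under normexp correction they were -2.71 and -2.54, both called.

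Snrpn encodes the spliceosomal protein SmN. Its brightest probe spanned -0.08 to 1.5 on the 8 arrays before 19 days and read -3.01 and -1.19 after 19 days. A second probe, well above background on all 10 arrays, did not show that pattern. Its means were 0.30 in E11.5 progenitors, -1.16 in P0 progenitors, -1.18 in P0 non-progenitors, -0.75 after 8 days and -1.84 after 19 days. There P0 progenitors replicate 1 (-2.53) lay below both 19-day arrays (-1.61 and -2.07). On the brightest probe Snrpn fell 8.36-fold from E11.5 progenitors to 19 days (-3.06 ± 0.69, adjusted p = 0.0226, limma). The call was lost without E11.5 replicate 1 (-2.53) or 19-day replicate 1 (-2.15), with the slide as a block (-2.05) and in the mean of its 3 probes (-1.48), of which 1 was dim. It was kept at -2.31 under normexp correction and at -3.98 without 19-day replicate 2. Peg12, a Frat family gene, read -0.37 and -0.51 in E11.5 progenitors, -0.10 and -0.92 in P0 progenitors, -2.23 and -1.77 in P0 non-progenitors, 0 and -0.18 after 8 days and -2.16 and -1.68 after 19 days. P0 non-progenitors and 19-day culture were lowest. It fell 2.78-fold from E11.5 progenitors to 19 days (-1.48 ± 0.37, adjusted p = 0.0336) and 3.55-fold from 8 to 19 days (-1.83 ± 0.37, adjusted p = 0.0262). Both calls were lost without any 1 of their arrays (-1.72 to -1.24 and -2.07 to -1.59) and with the slide as a block (-1.29 and -1.74). Ndn, which encodes the growth suppressor necdin, lay between -1.22 and 0.52, and the dim Mkrn3 between -6.46 and -2.97, and neither passed.

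Mest, Nnat and Plagl1, each paternally expressed, all fell between 8 and 19 days of culture. Mest, which encodes a hydrolase-fold protein of mesoderm, read 6.83 and 6.83 in E11.5 progenitors, 6.24 and 5.99 in P0 progenitors, 5.86 and 5.34 in P0 non-progenitors, 7.25 and 7.42 after 8 days and 2.69 and 5.37 after 19 days. The 19-day replicates differed by 2.68, and replicate 2 lay between the P0 non-progenitor arrays. Mest fell 6.97-fold from E11.5 progenitors to 19 days (-2.80 ± 0.71, adjusted p = 0.0354, limma) and 9.86-fold from 8 to 19 days (-3.30 ± 0.71, adjusted p = 0.0327). Without 19-day replicate 1 these changes were -1.46 and -1.96, and without 19-day replicate 2 -4.14 and -4.64. The first call was lost without either E11.5 array (-2.80 in both cases), the second without either 8-day array (-3.39 and -3.22), and both with the slide as a block (-2.97 and -3.39) and under quantile normalization (-2.58 and -2.99).

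Nnat, the gene of the small membrane protein neuronatin, read 4.86 and 5.08 in E11.5 progenitors, 3.28 and 3.42 in P0 progenitors, 2.70 and 1.94 in P0 non-progenitors, 4.45 and 4.44 after 8 days and 1.45 and 1.99 after 19 days. The E11.5 and 8-day arrays were the 4 highest and the 19-day arrays overlapped P0 non-progenitors. Nnat fell 9.51-fold from E11.5 progenitors to 19 days (-3.25 ± 0.28, adjusted p = 0.00064, limma), 6.61-fold from 8 to 19 days (-2.72 ± 0.28, adjusted p = 0.0032) and 3.07-fold from E11.5 to P0 progenitors (-1.62 ± 0.28, adjusted p = 0.0257). Both 19-day calls held without each array and with the slide as a block (-3.25 and -2.72), while the P0 call was lost without any 1 of its arrays (-1.73 to -1.51).

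Plagl1, which encodes the zinc-finger regulator ZAC1, read 3.96 and 4.33 in E11.5 progenitors, 3.67 and 2.93 in P0 progenitors, 6.73 and 6.62 in P0 non-progenitors, 6.33 and 6.73 after 8 days and 3.88 and 4.78 after 19 days. P0 non-progenitors and 8-day culture were high and overlapped each other, and the other 3 groups were lower. Plagl1 was 10.4-fold lower in progenitors than in non-progenitors of P0 (-3.37 ± 0.35, adjusted p = 0.00232, limma), rose 5.21-fold from E11.5 progenitors to 8 days (2.38 ± 0.35, adjusted p = 0.0154) and fell 4.59-fold from 8 to 19 days (-2.20 ± 0.35, adjusted p = 0.0112). After 8 days it stood 9.37-fold above P0 progenitors (3.23 ± 0.35, adjusted p = 0.00599). A second Plagl1 probe gave changes of -3.42, 2.36, -2.27 and 3.27 in these comparisons, but the 2 probes farther upstream gave smaller ones, and 1 of them was nearly flat (0.18, 0.43, -0.70 and 0.19). The mean of the 4 probes gave smaller changes of -2.15, 1.49, -1.49 and 2.14, all called.

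The 8-day rise of Plagl1 was lost without E11.5 replicate 1 (2.20) or either 8-day array (2.58 and 2.18) and with the slide as a block (2.18, adjusted p = 0.0616), and the later fall without 8-day replicate 2 (-2.0). The skeletal muscle markers, whose means were highest on the 8-day arrays, included Actc1 at 1.17 and 2.10 there and at -6.61 to -3.84 elsewhere. Their part in the 8-day values of Plagl1 was not tested. P0 non-progenitors, the other group with high Plagl1, had muscle means of -2.01 and -2.08. Not all muscle markers followed these means. Acta1 read 1.24 and 0.8 in P0 non-progenitors and -1.36 and -0.32 after 8 days. Tnnt1 read 1.2 and 0.81, then 2.04 and 3. Myod1 stayed between 1.34 and 2.43 on the 10 arrays, and Myf5 was well above background on 0 of them.

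Grb10, the maternally expressed adaptor that inhibits insulin and IGF receptor signalling, read 3.60 and 3.60 in E11.5 progenitors, 3.28 and 2.72 in P0 progenitors, 2.27 and 1.93 in P0 non-progenitors, 3.99 and 3.49 after 8 days and 2.60 and 2.70 after 19 days. It was 1.93-fold lower after 19 days than in E11.5 progenitors (-0.95 ± 0.25, adjusted p = 0.0419, limma) and 2.13-fold lower than after 8 days (-1.09 ± 0.25, adjusted p = 0.0422). Both calls were lost without any 1 of their arrays (-1.0 to -0.90 and -1.34 to -0.84) and with the slide as a block (-0.45 and -0.84). Gnas, the gene of the stimulatory G protein subunit, stayed between 5.4 and 5.90 on its brightest probe. Its fall of -0.41 ± 0.10 from E11.5 progenitors to 19 days passed (adjusted p = 0.0336) but was lost under quantile normalization (-0.15), with the slide as a block (-0.32) and without E11.5 replicate 1 (-0.42) or 2 (-0.41) or 19-day replicate 1 (-0.33). Zrsr1, a gene of a splicing factor relative, read -3.75 and -4.18 after 8 days and -0.46 and -2.06 after 19 days and rose 6.52-fold (2.70 ± 0.60, adjusted p = 0.0356). That call was lost without 19-day replicate 1 (1.91) or either 8-day array (2.92 and 2.49), with the slide as a block (2.92), and under normexp correction (1.13, adjusted p = 0.0988, limma), which cut the fold from 6.52 to 2.19. Without 19-day replicate 2 it was 3.5 and called. Impact, a regulator of the stress kinase GCN2 (-0.71 to 1.37), and the amino acid transporter gene Slc38a4 (-0.20 to 1.94) passed in no comparison.

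Igf2r, the maternally expressed receptor that removes IGF2 from the cell surface, was highest in culture. It read 5.06 and 4.52 in E11.5 progenitors, 4.53 and 4.44 in P0 progenitors, 5.11 and 4.88 in P0 non-progenitors, 5.89 and 6.09 after 8 days and 5.49 and 6.0 after 19 days. All 4 culture arrays were above all 6 fresh ones. Igf2r was 2.30-fold higher after 8 days than in E11.5 progenitors (1.20 ± 0.22, adjusted p = 0.0312, limma), 2.84-fold higher than in P0 progenitors (1.51 ± 0.22, adjusted p = 0.0162), and 1.94-fold higher after 19 days than in E11.5 progenitors (0.95 ± 0.22, adjusted p = 0.0271). These calls were lost with the slide as a block (1.1, 1.41 and 0.76). They were also lost without E11.5 replicate 2 (0.93) or either 8-day array (1.30 and 1.1), without any 1 of the 4 arrays (1.41 to 1.60), and without E11.5 replicate 2 (0.69) or 19-day replicate 2 (0.70), in the same order. Airn, the paternal RNA read antisense to Igf2r, spanned 0.52 to 1.84 and passed in none. The labels do not say whether labelling kept the strand, so the 2 transcripts may not be fully separated where they overlap.

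Of 15 other genes of the IGF pathway, 5 were higher and 3 lower after 19 days than in E11.5 progenitors (53.3% called, beside 16.8% of all names). Igfbp3, a secreted protein that binds IGFs, rose from -6.39 on both E11.5 arrays to 3.49 and 2.43 (at least 172-fold, adjusted p = 0.00111, limma), and Igfbp6, which prefers IGF2, from -5.22 and -6.38 to 1.76 and 0.25 (at least 44.4-fold, adjusted p = 0.00169). The adaptor Irs1 (47.3-fold), Igfbp7 (8.15-fold) and the ligand Igf1 (6.13-fold) were also higher. Igfbp5, another binding protein, fell 127-fold from 4.34 and 4.12 to -4.92 and -0.60 (-6.99 ± 1.16, adjusted p = 0.00729), and Igf2bp1, an RNA-binding protein of Igf2 messages, fell 14.4-fold (-3.85 ± 0.53, adjusted p = 0.0038). At P0 none of the 15 was higher in progenitors than in non-progenitors, and Igf1 (24.8-fold), Igfbp1 (at least 9.23-fold), Igfbp3 (23.0-fold) and Igfbp7 (6.95-fold) were lower (26.7% called, beside 8.35%). From E11.5 to P0 progenitors Igf2bp1 fell 7.93-fold and Igf2bp3 19.1-fold, while Irs1 rose 43.6-fold and Igfbp6 at least 14.4-fold (26.7% called, beside 3.93%). After 8 days Igfbp3 (at least 33.7-fold) and Irs1 (49.5-fold) were above E11.5 progenitors and Igf2bp1 (6.29-fold) below them (20% called, beside 4.78%).

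Of the 8 pathway calls in 19-day culture against E11.5 progenitors, Irs2 was lost without any 1 of the 4 arrays (-1.08 to -0.69) and the other 7 held. With the slide as a block 3 were higher and 0 lower, and Igf1 (2.99), Irs1 (4.85), Igfbp5 (-6.06), Igf2bp1 (-3.48) and Irs2 (-1.19) were lost. At P0 the call of Igfbp3 was lost without progenitors replicate 1 (-2.89) or either non-progenitor array (-4.09 and -4.95). Each of the 4 calls from E11.5 to P0 progenitors was lost without either P0 array, Igf2bp1 (-2.42) and Igfbp6 (4.61) also without E11.5 replicate 2, and Igf2bp3 without either E11.5 array (-4.29 and -4.23). After 8 days Igfbp3, Irs1 and Igf2bp1 were lost without either 8-day array and with the slide as a block (6.88, 5.27 and -2.47), and Igf2bp1 also without E11.5 replicate 2 (-2.09).

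Among 23 genes that set or keep imprints, none was higher and 11 were lower after 19 days than in E11.5 progenitors, where 9.55% of all names were lower, and 8 were lower after 19 than after 8 days, where 5.38% were. Uhrf1, which brings DNMT1 to newly copied DNA, read 6.82 and 6.98 in E11.5 progenitors, 5.49 and 5.63 in P0 progenitors, 5.25 and 4.41 in P0 non-progenitors, 5.55 and 6.0 after 8 days and 3.35 and 4.11 after 19 days. It fell 9.03-fold from E11.5 progenitors to 19 days (-3.17 ± 0.33, adjusted p = 0.00125, limma). Ezh2, the polycomb histone methyltransferase gene, fell 11.6-fold (-3.53 ± 0.33, adjusted p = 0.000849) and Cbx5, which encodes heterochromatin protein HP1 alpha, 5.31-fold (-2.41 ± 0.19, adjusted p = 0.000459). Smaller falls were seen for Trim28 (3.22-fold), Setdb1 (3.04-fold), Dnmt1 (2.87-fold), Ctcf (2.65-fold), Cbx3 (2.32-fold), Dnmt3a (2.03-fold), Smchd1 (1.73-fold) and Ehmt1 (1.30-fold). Zfp57 itself passed in no comparison, at 2.13 to 2.69 on the 10 arrays. The falls of Uhrf1, Ezh2, Cbx5, Trim28, Ctcf and Cbx3 held without each array. Setdb1 and Smchd1 were lost without any 1 of the 4, Ehmt1 without either E11.5 array or 19-day replicate 1, Dnmt1 without E11.5 replicate 2 (-1.2) or 19-day replicate 1 (-1.04), and Dnmt3a without E11.5 replicate 2 (-0.72) or either 19-day array (-1.15 and -0.9). The list then held 8, 7, 6 and 8 falls without E11.5 replicate 1 and 2 and 19-day replicate 1 and 2, with 2, 1, 0 and 0 rises. With the slide as a block 5 falls were called, and Trim28 (-1.58, adjusted p = 0.0551, limma) was lost beside those 5 genes. From 8 to 19 days the number of falls was 3 without 19-day replicate 1, 5 without replicate 2, and 4 without either 8-day array or with the block.

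**Figure D4:**
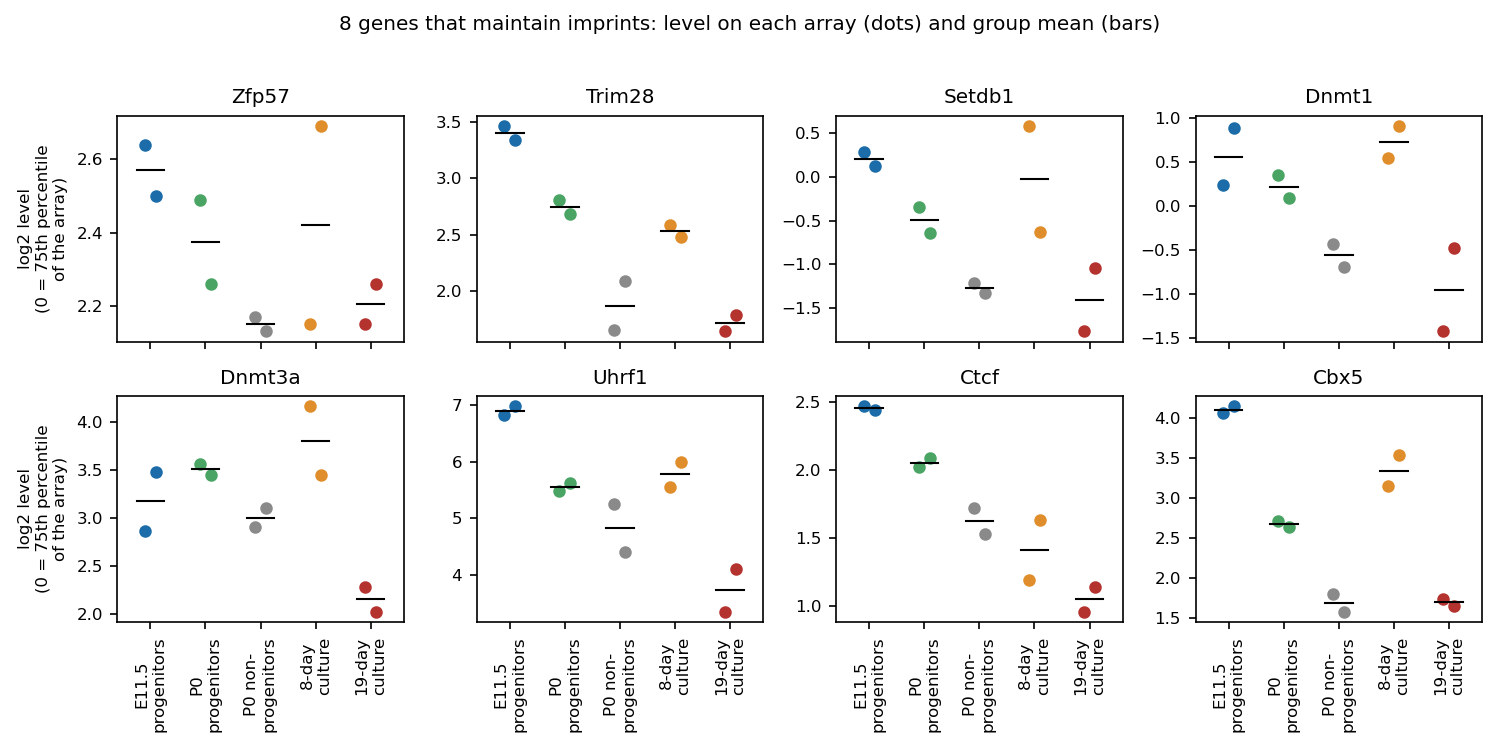
Log2 level of 8 genes that keep imprints on each array (dots) with the mean of the 2 arrays of a group (bars); each panel has its own vertical scale. Trim28, Dnmt1, Uhrf1, Ctcf and Cbx5 have lower means after 19 days of culture than in E11.5 progenitors, and Zfp57 stays between 2.13 and 2.69.

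The same 23 genes held 1 fall (Cbx5) from E11.5 to P0 progenitors and 1 fall (Ctcf, 2.07-fold) after 8 days. Each is 4.35% of the list, near the 3.93% and 4.78% of all names, and so no result about the list. At P0 Trim28 (1.83-fold), Cbx5 (1.98-fold) and Cbx3 (1.55-fold) were higher in progenitors than in non-progenitors and none was lower (13% called, beside 8.35% of all names). Without non-progenitors replicate 1 there was 1 such call, Cbx3, and without any of the other 3 arrays there were 0. The fall of Cbx5 to P0 was lost without either P0 array (-1.47 and -1.39), and that of Ctcf at 8 days without either E11.5 array (-1.03 and -1.06) or 8-day replicate 1 (-0.83).

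Of 32 further imprinted genes that were tested, 4 were higher and 5 lower after 19 days than in E11.5 progenitors (28.1% called, beside 16.8% of all names). Dcn, which encodes the matrix proteoglycan decorin and is itself a stromal marker, rose at least 112-fold, followed by Phactr2 (8.10-fold), Osbpl5 (6.67-fold) and Cd81 (2.90-fold). Copg2, the neighbour of Mest on the opposite strand, fell 5.68-fold, Ddc, the neighbour of Grb10, 5.12-fold, and Nap1l4 2.87-fold and Mcts2 2.75-fold. After 8 days Phactr2 was called (11.8-fold higher, 3.12% of the 32 beside 4.78% of all names). From E11.5 to P0 progenitors limma called 0 of the 32 (9 at an unadjusted p under 0.05), and in 8-day culture against P0 progenitors also 0 (6), against 8 falls and 6 rises among the 35 genes, a difference that was not tested. Without 19-day replicate 1 the 32 genes held 2 rises and 2 falls, and with the slide as a block 5 rises and 2 falls. Of the genes named, Dcn was lost without 19-day replicate 1 (7.72, adjusted p = 0.0547, limma). Phactr2 was lost without E11.5 replicate 1 (2.01) or 19-day replicate 1 (2.19), and at 8 days also without E11.5 replicate 1 (2.54) or either 8-day array (3.3 and 3.81). Copg2 and Nap1l4 were lost without E11.5 replicate 1 (-1.8 and -1.11) or either 19-day array, and Mcts2 without E11.5 replicate 2 (-1.22) or either 19-day array. The block ended the 19-day calls of Copg2, Nap1l4, Ddc, Osbpl5 and Phactr2 and the 8-day call of Phactr2.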

How the data were processed

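Total RNA of 10 samples was hybridised to single-colour arrays, 2 per group. The authors deposited each array's intensity per spot as Agilent Feature Extraction (version 11.5.1.1) gave it, with the local background subtracted and no scaling between arrays, per the file headers and the submitters' processing notes. The names in the file of P0 progenitors replicate 2 were altered for 62 spots, so probes were named from an E11.5 array, and symbols were updated through RefSeq accessions. After taking log2, the 75th percentile over the 59305 non-control spots of an array was subtracted from its values, outlier spots were treated as missing, and spots of a probe were averaged. A gene was represented by its brightest probe and was tested if some group had a probe of it well above background on each of its arrays. A lower bound of a fold ("at least") raises a group whose arrays were all not well above background to each array's lowest signal that was.

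Tests used limma 3.58.1 (R 4.3.3), fitting all 10 arrays with an intensity trend and 5 residual degrees of freedom, 2-sided, at an adjusted p of 0.05, and the procedure was tested on simulated data. The 36 genes and the 3 further lists were chosen with earlier results of these data known. All members are named, and of the other lists those that passed, at most the 4 largest changes in each direction, except Igf1, Dnmt1, Dnmt3a, Setdb1, Ctcf, Cbx3, Smchd1, Ehmt1 and Zfp57, which were chosen after seeing their values. The alternatives changed 1 step each: scaling by quantiles, background by normexp (offset 50), the filter (dropped, or required on every array), low values raised to a floor, probes of a gene averaged, the trend dropped, replicate number or slide as a block, slide 1 or 2 only, only the groups compared, and each array left out. For the 3 further lists, only the slide block and the left-out arrays were run, added after seeing the data.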

Additional observations from a re-analysis of the deposited data

Results flagged for a closer look

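For 9 of the 35 genes the effect of culture differed between the 2 culture times by limma's test of the difference itself, the log2 change of 19-day minus 8-day culture. That is 25.7% of the list, beside 8.04% of all names tested. Both effects are taken against the same E11.5 progenitors, which cancel in that difference. It was -3.31 for Igf2, -3.30 for Mest, -2.20 for Plagl1, -2.72 for Nnat, -1.83 for Peg12, -1.20 for H19, -3.23 for Cdkn1c and -1.09 for Grb10, all lower after 19 days, and 2.70 for Zrsr1, higher after 19 days. For Plagl1 the change from E11.5 progenitors was 2.38 and called at 8 days, and 0.18 and not called at 19 days. On slide 2 alone the 9 changes had the same sign. That slide holds 1 array of 8-day culture, too few to decide on calls. No group had enough arrays for a check on single outlying samples.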

How the results depend on the processing

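For the 19 genes called in at least 1 comparison, no result turned its direction in a called comparison under any alternative run. Of their results, 1456 stayed on their side of the threshold, many of them never called, 207 were lost and 16 were gained. Calls gained by the other genes are not in these counts. With low values raised to a floor, for instance, 18 genes were called in 19-day culture against E11.5 progenitors, including the 16 of the main fit. Of the further calls there, that of Zim1 (-2.01) is in these counts, and the other was by a gene outside the 19. Of the 51 calls, 18 in 9 genes held without each array in turn and 33 did not. The share of calls over all names that held in this way is not given here. The number of genes called, leaving out 1 array, was 3 to 5 (6 with all arrays) for P0 progenitors against P0 non-progenitors, 1 to 6 (8) for P0 against E11.5 progenitors, 1 to 3 (6) for 8-day culture and 10 to 13 (16) for 19-day culture against E11.5 progenitors, 3 to 7 (9) for 19-day against 8-day culture and 2 to 2 (6) for 8-day culture against P0 progenitors. A fit of the compared groups alone called 3 genes in P0 against E11.5 progenitors, 0 in 8-day and 7 in 19-day culture against E11.5 progenitors and 0 in 19-day against 8-day culture. Over all names tested it called 434, 0, 1290 and 0 in the same order, so the counts of 0 are not particular to the list. With the slide as a block, 8-day and 19-day culture against E11.5 progenitors gave 3 and 5 calls and 8-day culture against P0 progenitors 2; slide 1 alone gave 3 for the last, and slide 2 alone 0 for 19-day against 8-day culture. Without the intensity trend 3 genes were called in 8-day culture against E11.5 progenitors and 5 in 19-day against 8-day culture. Calls over all names tested also fell in each comparison whichever array was left out, and in the fits with the slide block or on 1 slide just given. The causes were not tested, beyond fewer arrays in the smaller fits.

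Replicate numbers did not pair the samples (correlations of deviations from -0.013 to 0.021 over the comparisons). With a replicate block 6, 7, 6, 15, 9 and 6 genes were called in the order of the report's 6 comparisons. Normexp correction moved the median change of all names in 19-day culture against E11.5 progenitors from 0.006 to -0.167. The list's split there was again 3 higher and 13 lower, but the genes were not all the same. Of the 16 main calls 14 were kept, Grb10 (-0.84) and Gnas (-0.32) were lost, and Zim1 (-1.26) was among those gained. Genes that lacked a signal well above background on 1 or both arrays of some group (Zim1, Usp29, Meg3, Rtl1, Phlda2, Mkrn3, Peg10, Kcnq1ot1 and Ascl2) are limited by signal there.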
